A study of Mus musculus with 11 samples.

Results

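Sorted cells from 2 mouse lines that mark the same progenitor gene with green fluorescent protein (GFP) were compared across all measured genes. The 6 arrays, of 11 in the study, were kiTbr2GFP replicates 1 to 3 and tgTbr2GFP replicates 1 to 3, and the comparison covered 16527 of the 16527 genes kept after a filter on low values. Both gene names in the labels, Eomes and Tbr2, refer to the same gene. In kiTbr2GFP mice GFP was knocked into Eomes, and in tgTbr2GFP mice GFP is carried by a transgene made from a bacterial artificial chromosome (BAC) with Tbr2. All mice were adult, at postnatal day 35, and no group received a treatment according to the labels. The dentate gyrus, the part of the hippocampus where granule neurons are still made in adult mice, was microdissected from dorsal and ventral slices of 750 µm. Cells were dissociated and sorted by fluorescence, with about 3000 to 5000 cells per group, and their RNA was amplified and measured on Affymetrix Gene ST arrays for mouse. The labels used here give neither the extent of the BAC, nor the number of intact Eomes copies in knock-in mice, nor strain, sex or the number of animals behind an array. NesGFP (3 arrays, GFP reporter of Nestin, a stem cell filament) and PomcGFP (2 arrays, GFP reporter of Pomc, which labels young granule neurons) entered the fit and serve as a reference below. One question the pair of Tbr2 lines allows is whether cells caught by either reporter carry the same transcripts.

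Tbr2 is a T-box transcription factor of intermediate neuronal progenitors, the cells between radial stem cells and young granule neurons. Such progenitors divide a limited number of times, switch off stem cell genes and hand over to Neurod1, Prox1 and doublecortin. GFP is a long-lived protein, so a sorted population can include cells that have already moved past the stage at which the reporter gene is transcribed. A knock-in reads the gene's own regulatory surroundings, whereas a BAC transgene carries a long but limited stretch of them.

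The values are log2 RMA values, a scale on which 1 unit is a 2-fold difference, and differences are kiTbr2GFP minus tgTbr2GFP. Medians of the 6 arrays lay between 7.03 and 7.15 and their 75th percentiles between 8.10 and 8.17. Across genes, arrays correlated at 0.977 to 0.985 within kiTbr2GFP, 0.967 to 0.978 within tgTbr2GFP and 0.952 to 0.973 between the lines. Precision is limited by how few arrays there are. The labels do not tell whether replicate arrays are different animals, so p-values measure only how far arrays scatter, part of which could be technical scatter. The first tgTbr2GFP array stood apart in markers of other cells. Its mean over 14 oligodendrocyte genes was 9.29, against 7.33 and 7.67 on the other tgTbr2GFP arrays and 7.30 to 8.06 on the kiTbr2GFP arrays, and Ttr, a choroid plexus gene, stood at 12.01 there and at 6.34 to 7.28 on the other 5. The tgTbr2GFP arrays also differed in sex-linked genes: Xist, expressed from the inactive X of females, was at 6.40, 11.44 and 11.27, and the mean of the Y-linked genes at 9.04, 5.05 and 7.49. All kiTbr2GFP arrays carried both, with Xist at 10.29 to 10.45 and Y-linked means of 8.70 to 8.96. The first and second tgTbr2GFP arrays thus did not come from the same animals, while for the kiTbr2GFP arrays these values do not tell. For most genes named as past the test, results below give the arrays that ended a call when left out, or how many such fits kept it.

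In the comparison of the lines, 185 of 16527 genes passed limma's moderated test at an adjusted p under 0.05 (1.12% of genes tested), hereafter "the test". Of these, 72 were higher in kiTbr2GFP (0.436%) and 113 higher in tgTbr2GFP (0.684%), and 33 and 57 of them differed by over 2-fold (0.2% and 0.345%). Of the 72, 33 belonged to lists of mitosis, DNA replication or G1 control, against 0 of the 113, and 35 belonged to no list. Of the 113, 24 belonged to any list, among them lists of mature neurons, receptors, ion channels and astrocytes, and 89 to none. The median difference over all genes was 0.02. None of the 185 had overlapping arrays between the lines, whereas over all genes all kiTbr2GFP arrays lay above all tgTbr2GFP arrays for 1286 (7.78%) and below for 1551 (9.38%). An unadjusted p under 0.05 was reached by 1523 genes (9.22%). These shares over all genes are the reference for the list counts below. Leaving out 1 array reduced the 185 to 68 without the first, 85 without the second and 69 without the third kiTbr2GFP array, and to 77 without the first and 80 without the third tgTbr2GFP array. The count without the second tgTbr2GFP array was 174. Of the 185 genes, 43 passed in all 6 of these fits, 24 higher in kiTbr2GFP and 19 higher in tgTbr2GFP, and 31 passed in none of them.

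**Figure D1:**
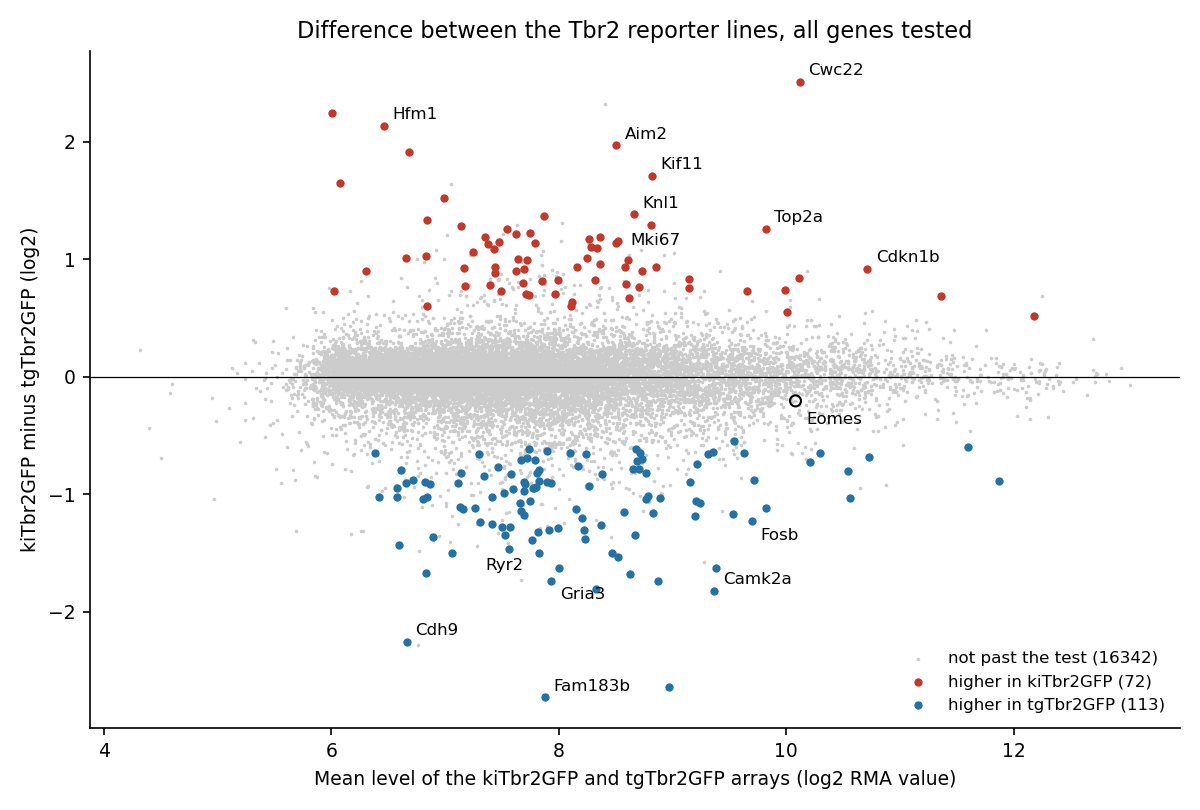
Difference between the lines (kiTbr2GFP minus tgTbr2GFP, log2) against the mean log2 RMA value over the 6 arrays, 1 point per gene for 16527 genes. Red points are the 72 genes higher in kiTbr2GFP and blue points the 113 higher in tgTbr2GFP at an adjusted p under 0.05, grey points the rest, and the open circle is Eomes at -0.21.

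Eomes, the gene behind both reporters, was at nearly the same level in the lines. It stood at 10.07, 9.93 and 9.93 on the kiTbr2GFP arrays and at 9.83, 10.34 and 10.39 on the tgTbr2GFP arrays. The groups overlapped, with the first tgTbr2GFP array below all kiTbr2GFP arrays and the others above them. The difference was -0.21 ± 0.20 (SE; 95% interval -0.65 to 0.23; limma adjusted p = 0.953), so the interval allows a level in kiTbr2GFP from 0.65 lower to 0.23 higher on the log2 scale. Of the 10 nearest tested genes on each side of Eomes, 0 of 20 passed limma's test, with differences of -0.48 to 0.19, 1 unadjusted p under 0.05 and a lowest adjusted p of 0.0797. Whether the GFP cassette alters the Eomes probes' target was not tested.

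Several genes of the steps after Tbr2 did not pass either. Neurod1, a factor of granule neuron differentiation, differed by 0.02 (95% interval -0.29 to 0.34), Prox1, the granule fate gene, by 0.12 (-0.14 to 0.37) and Tubb3, the neuronal tubulin, by 0.05 (-0.18 to 0.27). Dcx, the microtubule-associated protein of migrating young neurons, was at 11.36, 11.29 and 11.23 on the kiTbr2GFP arrays and at 10.88, 11.07 and 10.94 on the tgTbr2GFP arrays. Its groups did not overlap, yet the difference of 0.33 ± 0.15 (SE; limma adjusted p = 0.519) missed the threshold. Among stem cell genes, Sox2 differed by 0.06 (-0.34 to 0.46), Pax6 by 0.21 (-0.10 to 0.51) and Nes by 0.21 (-0.19 to 0.60). The signs for Neurod1, Tubb3 and Sox2 turned when single arrays were left out, as given in the closing section. Over the whole list of immature neuron genes, 0 of 26 passed, where 1.12% of all genes did, and the median was 0.03, beside 0.02 for all genes. Their mean level was 9.87 to 10.01 on the kiTbr2GFP arrays and 9.84 to 9.98 on the tgTbr2GFP arrays.

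Among genes of mitosis, Mki67, the proliferation marker, was at 9.30, 8.95 and 9.03 on the kiTbr2GFP arrays and at 7.71, 8.02 and 8.08 on the tgTbr2GFP arrays. All kiTbr2GFP arrays lay above all tgTbr2GFP arrays, and the difference was 1.16 ± 0.13 (SE; a 2.23-fold higher level; limma adjusted p = 0.00462), with the call kept in all 6 fits that leave out an array. Kif11, the motor that pushes spindle poles apart, was at 9.93, 9.66 and 9.45 against 7.77, 8.02 and 8.11, which is 1.71 ± 0.21 (SE; 3.27-fold; limma adjusted p = 0.00622). Top2a, the topoisomerase that disentangles sister chromatids, was at 10.55, 10.46 and 10.34 against 9.05, 9.36 and 9.17. That difference of 1.26 ± 0.20 (SE; limma adjusted p = 0.0151) passed with all arrays, but its call ended without any of the kiTbr2GFP arrays or without the first or the third tgTbr2GFP array (adjusted p = 0.0548 to 0.0840). A second probe set of Top2a, at a mean of 5.16 over all arrays, differed by 0.01.

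Of 49 measured genes on the mitosis and kinetochore list, 26 were higher in kiTbr2GFP and 0 higher in tgTbr2GFP. All 49 differences were positive, from 0.13 to 1.71 with a median of 0.93 beside 0.02 for all genes. For 43 of the 49 all kiTbr2GFP arrays lay above all tgTbr2GFP arrays, beside 7.78% of all genes. The count past the test was 12 without the first, 13 without the second kiTbr2GFP array, 12 without the first and 13 without the third tgTbr2GFP array, while the median stayed between 0.86 and 1.00. Kinetochore proteins that passed included Knl1 (1.38), the outer kinetochore scaffold, Ndc80 (0.93) and Spc25 (0.96) of the microtubule-binding complex, and Cenpe (1.19), a kinetochore motor. Knl1 lost its call without the first kiTbr2GFP array (adjusted p = 0.0593). Guardians of chromatid cohesion and of the spindle checkpoint passed too, with Sgo1 at 1.33, Bub1 at 0.99 and the kinase Ttk at 1.21. Spindle and midzone genes followed, such as Tpx2 (1.14), which nucleates spindle microtubules, Prc1 (1.10) and Kif23 (1.10) of the central spindle, Aspm (1.14) at spindle poles, and Kif20b (1.26), Ect2 (1.13) and Cep55 (1.29) of cytokinesis. Condensin subunits Ncapg (1.17) and Ncaph (0.71) passed, while the condensin cores Smc4 (0.90) and Smc2 (0.57) did not. Other members short of the test were Cdk1 (0.61), the mitotic kinase, Aurkb (0.29), Plk1 (0.16), Cdc20 (0.13) and Ube2c (0.15). For Aurkb, for Plk1, a mitotic kinase, and for Cdc20 and Ube2c of the anaphase-promoting machinery, arrays of the lines overlapped. Of the members named here, Cenpe, Spc25, Sgo1, Ttk, Tpx2, Kif20b and Cep55 passed in all 6 fits that leave out an array. Kif23 passed in 5 of them, Aspm in 4, Ncapg in 3, and Ndc80, Prc1 and Ect2 in 1 each. Bub1 and Ncaph passed in 0 of them, so their calls ended without the first tgTbr2GFP array too.

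**Figure D2:**
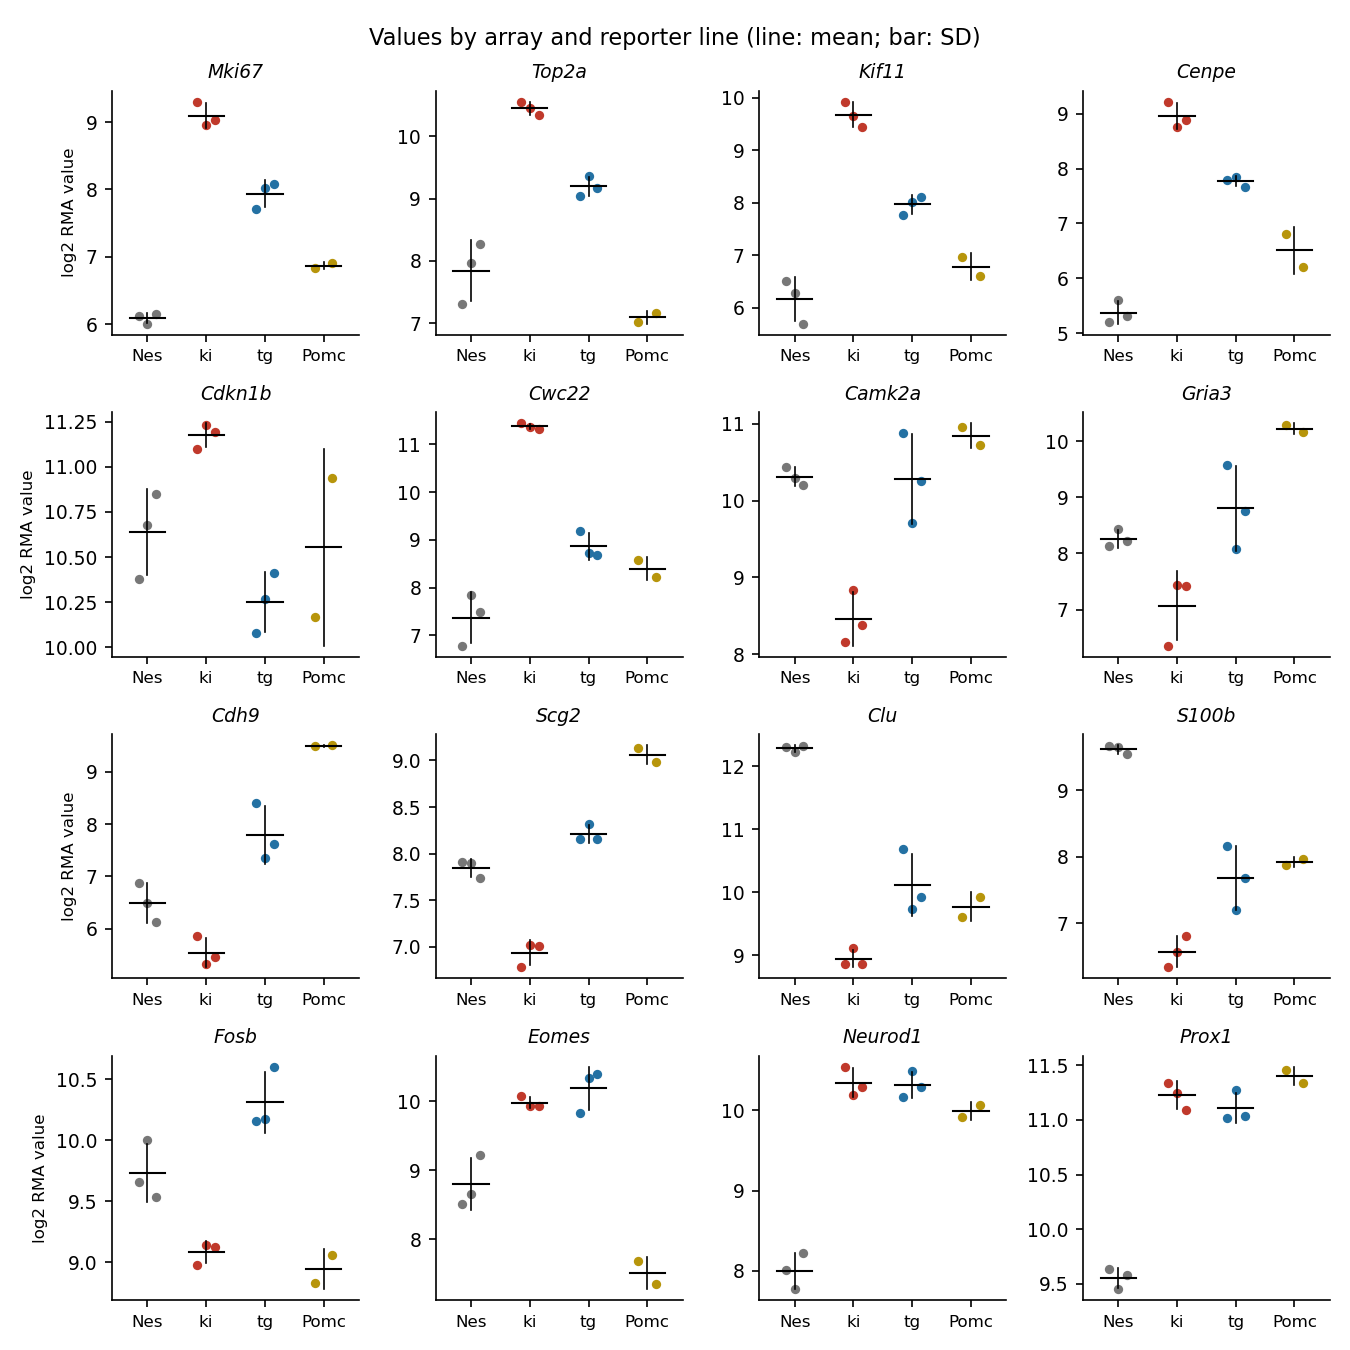
Log2 RMA value of single genes on each of the 11 arrays, 1 panel per gene, with points coloured by line. Horizontal lines are means and vertical bars SDs. Mki67 and Kif11 show all kiTbr2GFP arrays above all tgTbr2GFP arrays, Camk2a shows the reverse, and Eomes overlaps between the lines.

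The promoters of these genes share short sequence elements. Promoter windows of 300 bases (250 before to 50 after the transcription start) were taken from RefSeq on GRCm38.p6 and searched on both strands. The search covered 6 motifs, of which TGACGTCA is given with Scg2 below. TTTGAA is the core of the cell cycle genes homology region, through which the DREAM and MuvB complexes are known to time mitotic transcription. It was present in 18 of the 24 mitosis genes past the test that had an entry (75%) and in 13 of the 19 that did not pass (68.4%). Among all 27025 genes with an entry 20.2% held it, and among the genes higher in tgTbr2GFP 18 of 94 (19.1%). CCAAT, the box bound by NF-Y, was in 31 of the 43 measured mitosis genes (72.1%) and in 41.1% of all entries. It was in 16 of the 24 past the test (66.7%) and in 15 of the 19 that did not pass (78.9%). TATAAA was in 1 of these 43 (2.33%), in 13 of the 94 genes higher in tgTbr2GFP (13.8%) and in 15.7% of all. The E2F motif TTTCCCGC was in 1 of the 43 (2.33%) and in 1.24% of all. CAGATGG was in 1 of the 43 (2.33%), in 4 of the 94 genes higher in tgTbr2GFP (4.26%) and in 6.02% of all. A match describes letters in a window, and binding was not measured. The 100 bases before the start of 3 leading mitosis genes are shown because they hold this element, in capitals on whichever strand it was found (TTCAAA is the same element read on the other strand); the windows are chr19:37376282-37376381 on the plus strand for Kif11, chr11:99024190-99024289 on the minus strand for Top2a and chr7:135716380-135716479 on the minus strand for Mki67, each written 5′ to 3′ along its gene.
Kif11: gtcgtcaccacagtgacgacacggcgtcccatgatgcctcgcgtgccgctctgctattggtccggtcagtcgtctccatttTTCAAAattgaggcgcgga
Top2a: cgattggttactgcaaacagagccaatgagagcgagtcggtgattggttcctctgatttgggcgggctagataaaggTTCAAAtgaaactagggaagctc
Mki67: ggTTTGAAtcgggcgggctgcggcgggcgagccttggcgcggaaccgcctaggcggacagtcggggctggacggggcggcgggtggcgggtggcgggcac
The element begins 19 bases before the start in Kif11, 23 in Top2a and 98 in Mki67.

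Of 36 measured DNA replication genes, 4 passed as higher in kiTbr2GFP and 0 as higher in tgTbr2GFP, and 35 differences were positive, with a median of 0.39. Clspn, the adaptor of the replication checkpoint, was at 8.08, 8.06 and 8.10 on the kiTbr2GFP arrays and at 7.32, 7.29 and 7.25 on the tgTbr2GFP arrays. These tight and separate groups differed by 0.80 ± 0.10 (SE; limma adjusted p = 0.00622), and the call held in all 6 fits that leave out an array. The others were Esco2 (1.03), the S-phase cohesin acetyltransferase, Hells (0.82), a chromatin remodeller, and Rrm1 (0.77), a subunit of ribonucleotide reductase. Leaving out any 1 array left 1 or 2 members past the test. Esco2 failed without any array but the third kiTbr2GFP (adjusted p = 0.0641 to 0.132) and Hells without any array (0.0599 to 0.198). Rrm1 failed without any 1 array too. The replicative helicase Mcm2 to Mcm7 differed by 0.03 to 0.67 and none of the 6 passed. Pcna, the sliding clamp, was at 11.41, 11.25 and 11.24 against 10.81, 11.001 and 10.91, a non-overlapping difference of 0.40 that missed the test (limma adjusted p = 0.138). DNA repair genes outside the list were also among the 72, namely Neil3 (1.37), a DNA glycosylase, Brip1 (0.90), Rad54b (0.93) and the checkpoint kinase Chek1 (0.88). Neil3 and Brip1 passed in all 6 fits that leave out an array, Rad54b in 4 and Chek1 in 1.

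Genes that act in opposite directions on the G1 phase were higher together. Of 21 measured genes 3 were higher in kiTbr2GFP: Ccnd2 (0.74), a cyclin that drives G1, and Cdkn1b (0.92) and Rbl1 (0.77), which restrain it. Cdkn1b, the inhibitor p27, was at 11.10, 11.23 and 11.19 against 10.08, 10.27 and 10.41. Its groups did not overlap, but the mean over its probe sets gave 0.60 (limma adjusted p = 0.138), since the other probe set differed by 0.27. Leaving out any 1 of the 6 arrays ended the call of Cdkn1b (adjusted p = 0.0899 to 0.173) and of Ccnd2 (0.0584 to 0.107), and leaving out the first or the third kiTbr2GFP array or the first tgTbr2GFP array ended that of Rbl1 (0.0621 to 0.0749). Ccnd1, the other well-known G1 cyclin of neural progenitors, differed by 0.02 and did not pass.

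Among 24 intermediate progenitor genes, 2 were higher in kiTbr2GFP and 0 higher in tgTbr2GFP, with a median of 0.15 that was 0.06 without the first and 0.25 without the third tgTbr2GFP array. Mfap4, a matrix protein gene on the list, stood at 8.47, 8.15 and 8.33 against 7.62, 7.58 and 7.63, a difference of 0.70 ± 0.11 (SE; limma adjusted p = 0.0109; 0.0521 without the third kiTbr2GFP array). Nhlh1, a basic helix-loop-helix factor of newborn neurons, differed by 0.67 ± 0.12 (SE; limma adjusted p = 0.0287) and lost its call without any array but the third tgTbr2GFP (0.0641 to 0.121). Neurod4, a proneural factor, was at 8.88, 8.45 and 8.46 against 7.35, 7.66 and 7.32. The groups were separate, and the difference of 1.15 ± 0.29 (SE; limma adjusted p = 0.100) missed the test in the fit of all 11 arrays. It passed with the NesGFP arrays left out (limma adjusted p = 0.00646), whose Neurod4 values ranged from 4.53 to 5.96. Penk, an opioid peptide precursor, was the lowest of the list at -1.15 (limma adjusted p = 0.12).

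Some genes of mature excitatory neurons, 5 of 28 measured, were higher in tgTbr2GFP. Camk2a, the calcium/calmodulin kinase of excitatory synapses, was at 8.16, 8.84 and 8.37 on the kiTbr2GFP arrays and at 10.88, 9.70 and 10.25 on the tgTbr2GFP arrays. All tgTbr2GFP arrays lay above all kiTbr2GFP arrays, and the level in kiTbr2GFP was lower by 3.53-fold (-1.82 ± 0.26 SE; limma adjusted p = 0.00878), a call kept in all 6 fits that leave out an array. Nefl, the light neurofilament, was at 7.57, 7.82 and 7.83 against 9.27, 8.64 and 9.11, a difference of -1.27 ± 0.16 (SE; limma adjusted p = 0.00727) that also held in all 6. Camk2a stood at 10.20 to 10.44 on the NesGFP arrays and at 10.73 to 10.96 on the PomcGFP arrays. Nefl stood at 8.58 to 8.94 and at 9.56 to 9.61 there. For both genes the kiTbr2GFP arrays were thus the ones set apart, and the tgTbr2GFP level was not particular to that line. No member of the list was higher in kiTbr2GFP, and the other 3 past the test were Gria3 (-1.74), an AMPA receptor subunit, C1ql3 (-0.94), a secreted synaptic organizer, and Ncdn (-0.65). C1ql3 and Ncdn each passed in 1 of the 6 fits. The median was -0.51, and 24 of 28 differences were negative. For 18 all tgTbr2GFP arrays lay above all kiTbr2GFP arrays, beside 9.38% of all genes. The count past the test was 3 without the first kiTbr2GFP array, 2 without the second or the third, 2 without the first or the third tgTbr2GFP array and 7 without the second. Calb1, the calcium buffer of mature granule neurons, was at 7.78, 7.28 and 6.83 against 8.72, 8.03 and 8.40, separate groups whose difference of -1.09 ± 0.24 (SE; limma adjusted p = 0.0562) fell short. The other 23 members did not pass, and their differences included -0.70 for Syt1 and -0.29 for Snap25, both without overlap, -0.0042 for Gria2, and 0.26 for Rbfox3, also without overlap. In RNA from sorted populations, fewer cells of a type and less RNA per cell cannot be told apart.

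**Figure D3:**
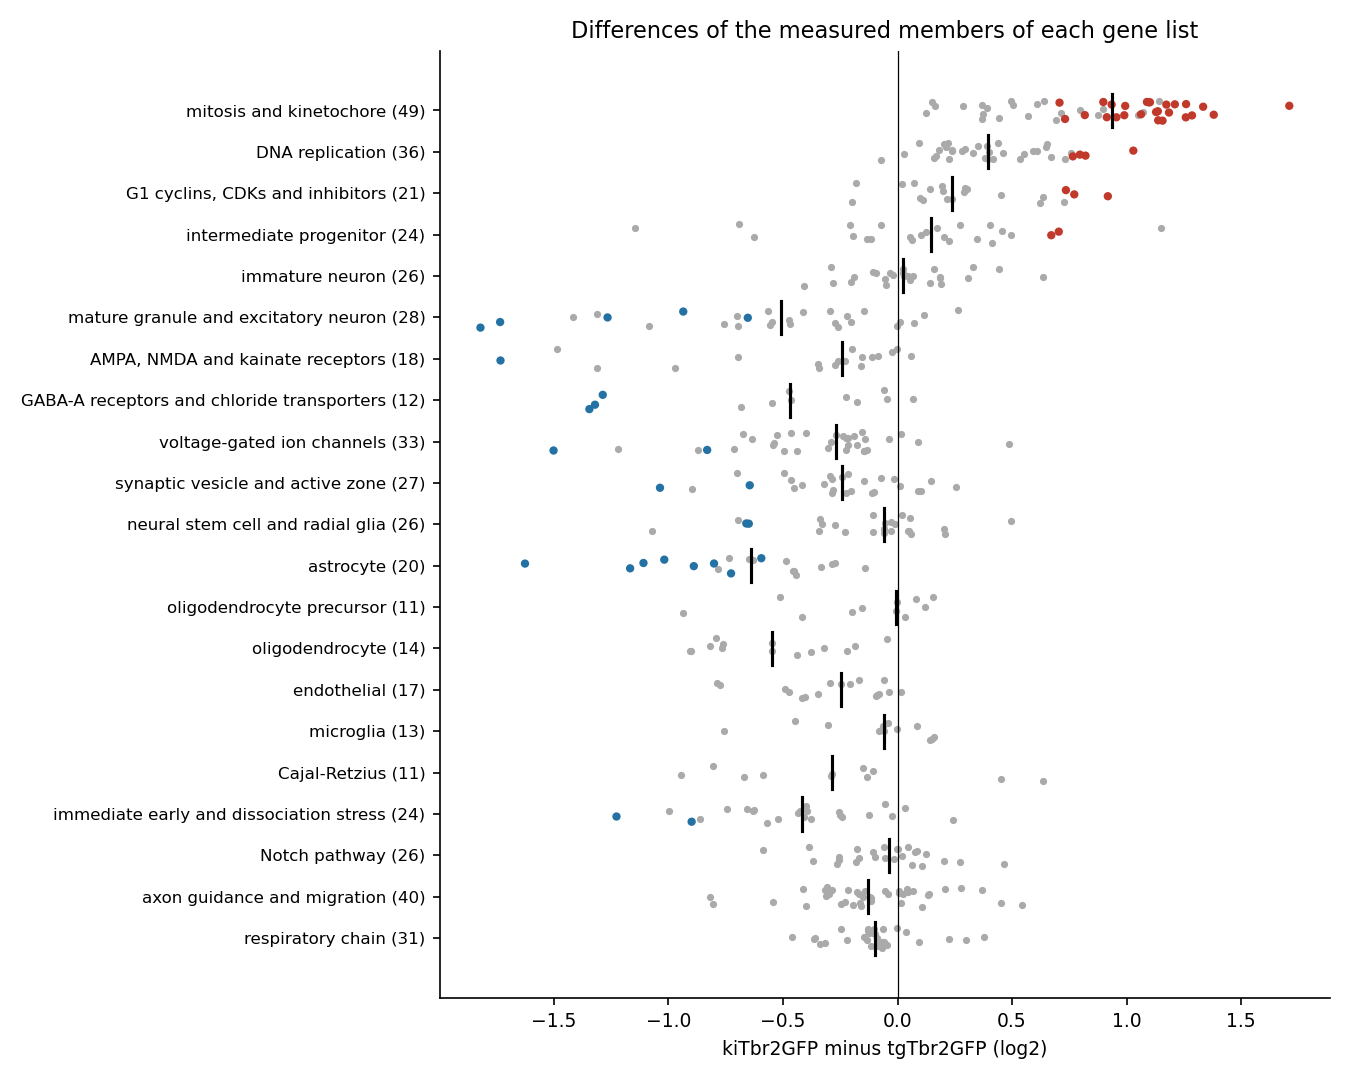
Differences (kiTbr2GFP minus tgTbr2GFP, log2) of the measured members of the gene lists, 1 row for each of 21 lists with its number of genes, with coloured points past the test and black bars at the median. The mitosis row lies wholly to the right of 0 with a median of 0.93, and the astrocyte row wholly to the left with a median of -0.64.

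Few receptor and channel genes passed the test. Of 18 AMPA, NMDA and kainate receptor genes 1 passed, Gria3, at 6.36, 7.43 and 7.41 on the kiTbr2GFP arrays and 9.58, 8.08 and 8.75 on the tgTbr2GFP arrays. The spread within each line was wide, and its call (limma adjusted p = 0.0415) ended without any array but the second tgTbr2GFP (0.0752 to 0.150). The list median was -0.24 (-0.16 without the first tgTbr2GFP array), and 17 of 18 differences were negative, with 3 members past the test without the second tgTbr2GFP array. Of 12 GABA-A receptor and chloride transporter genes 3 were higher in tgTbr2GFP, the receptor subunits Gabrb2 (-1.35), Gabrg3 (-1.32) and Gabrb1 (-1.29). Their calls each ended without 4 or 5 of the 6 arrays (adjusted p = 0.0510 to 0.132), among them the first and the third kiTbr2GFP and the first tgTbr2GFP arrays for all 3 genes. The transporters that set the chloride gradient, Slc12a2 (-0.05) and Slc12a5 (-0.46), did not pass. Of 33 voltage-gated and related channel genes 2 passed, Ryr2 (-1.50), the calcium release channel of the endoplasmic reticulum, and Kcnc2 (-0.83), a fast potassium channel. Ryr2 was at 7.01, 7.27 and 6.95 against 9.31, 8.06 and 8.36; its call ended without any of the kiTbr2GFP arrays or the third tgTbr2GFP array (0.0562 to 0.105), and that of Kcnc2 without any array but the first tgTbr2GFP (0.0746 to 0.140). Of 27 synaptic vesicle and active zone genes 2 passed, Sv2b (-1.04), a vesicle glycoprotein, and Erc2 (-0.65), an active zone scaffold. Sv2b failed without the first kiTbr2GFP or the third tgTbr2GFP array (0.0519 and 0.0596), and Erc2 without any array but the first kiTbr2GFP (0.0694 to 0.143). The medians of the GABA-A, channel and vesicle lists were -0.47, -0.27 and -0.24, and the first and last were -0.31 without the first and -0.16 without the third tgTbr2GFP array.

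Of 20 measured astrocyte genes, 8 passed as higher in tgTbr2GFP and 0 as higher in kiTbr2GFP. All 20 differences were negative, from -1.63 to -0.14 with a median of -0.64. For 15 all tgTbr2GFP arrays lay above all kiTbr2GFP arrays, beside 9.38% of all genes. The mean of the list was 9.17 and 9.30 on the PomcGFP arrays, within the tgTbr2GFP range of 9.01 to 9.60. It was 10.73 to 10.82 on the NesGFP arrays and lowest on the kiTbr2GFP arrays, at 8.50 to 8.69. The tgTbr2GFP level of this list was thus not particular to that line. Slco1c1, a thyroid hormone transporter, was at 7.11, 7.23 and 7.23 on the kiTbr2GFP arrays and at 9.36, 8.26 and 8.83 on the tgTbr2GFP arrays. This difference of -1.63 ± 0.25 (SE; limma adjusted p = 0.0112) lost its call without the first or the third kiTbr2GFP or the third tgTbr2GFP array (0.0512 to 0.0616). Clu, the secreted chaperone clusterin, was at 8.87, 9.11 and 8.87 against 10.68, 9.74 and 9.93, a difference of -1.17 ± 0.21 (SE; limma adjusted p = 0.0219). Its call ended without any kiTbr2GFP array or without the third tgTbr2GFP array (0.0546 to 0.104). The others were S100b (-1.11), a calcium-binding protein, the bicarbonate transporter Slc4a4 (-1.02), Sparcl1 (-0.89), the sodium pump subunit Atp1b2 (-0.80), the lipid carrier Apoe (-0.73) and Cst3 (-0.59). S100b lost its call without any array but the second tgTbr2GFP (0.0634 to 0.136). Atp1b2 passed in all 6 fits that leave out an array, Sparcl1 in 4, and Slc4a4, Apoe and Cst3 in 1 each. The defining markers Gfap (-0.45), Aqp4 (-0.74), Aldh1l1 (-0.27) and Gja1 (-0.78) did not pass. The list count was 1 without the first or the third kiTbr2GFP array, 3 without the second, 4 without the first tgTbr2GFP array, 2 without the third and 9 without the second.

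Among the 6 arrays, oligodendrocyte, endothelial and choroid plexus markers were highest on the first tgTbr2GFP array. The astrocyte mean was 8.50 to 8.69 on the kiTbr2GFP arrays and 9.60, 9.01 and 9.25 on the tgTbr2GFP arrays, so the groups did not overlap and the first tgTbr2GFP array was highest. Over 14 oligodendrocyte genes 0 passed, with a median of -0.55 and all 14 negative, but the median was 0.01 without the first tgTbr2GFP array and -0.99 without the second. Opalin, a myelin gene, was at 6.12, 6.95 and 6.08 against 8.70, 5.57 and 6.19, and its difference of -0.44 turned to 0.50 without the first tgTbr2GFP array. Mag, another myelin gene, likewise went from -0.38 to 0.31, and Ttr from -1.73 to 0.01. Endothelial genes averaged 6.44 to 6.58 on the kiTbr2GFP arrays and 7.25, 6.50 and 6.71 on the tgTbr2GFP arrays, with 0 of 17 past the test. Lists of oligodendrocyte precursors (11 genes), mural cells (12), microglia (13), interneurons (14) and meningeal fibroblasts (10) also had 0 members past the test with all arrays. Without the second tgTbr2GFP array Bcas1 of the precursor list passed, at -1.51 (limma adjusted p = 0.0223). The median of the mature neuron list was -0.51 with all arrays, and its mean level was 9.14, 8.76 and 8.98 on the tgTbr2GFP arrays, again highest on the first. Without that array the counts past the test were 2 in the mature neuron list and 4 in the astrocyte list. The part of other cells in these results beyond these values was not tested.

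Stem cell genes gave a mixed picture. Of 26 measured genes of neural stem cells and radial glia 2 were higher in tgTbr2GFP and 0 in kiTbr2GFP, with a median of -0.06. Hopx, an atypical homeodomain protein of quiescent stem cells, was at 7.85, 8.02 and 7.85 against 8.41, 8.64 and 8.65, a difference of -0.66 ± 0.12 (SE; limma adjusted p = 0.0219). Slc1a3, the glutamate transporter GLAST of radial glia and astrocytes, was at 9.95, 10.04 and 9.93 against 10.63, 10.71 and 10.53, a difference of -0.65 ± 0.11 (SE; limma adjusted p = 0.0160). For both genes the first tgTbr2GFP array was not the highest of its line, and both calls ended without most single arrays (Hopx without any but the first tgTbr2GFP, 0.0541 to 0.102; Slc1a3 without any but the third tgTbr2GFP, 0.0541 to 0.0804). Hes5 (-0.11) and Notch1 (0.02), of the Notch pathway that maintains stem cells, did not pass.

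Cajal-Retzius neurons also express Tbr2, so their markers were examined. Of 11 measured, 0 passed with all arrays, with a median of -0.29 that was -0.11 without the second tgTbr2GFP array. Without the first tgTbr2GFP array 1 member passed, the calcium channel subunit Cacna2d2, at -0.99 (limma adjusted p = 0.0326). Reln, their secreted signal, was at 10.15, 10.28 and 9.99 on the kiTbr2GFP arrays and at 10.59, 11.33 and 10.92 on the tgTbr2GFP arrays. These groups were separate, but the difference of -0.80 ± 0.27 (SE; limma adjusted p = 0.268) missed the test. Ndnf, another secreted protein of these neurons, stood at 10.22, 10.22 and 10.09 against 10.70, 11.53 and 11.14 (-0.95; limma adjusted p = 0.31), highest on the second tgTbr2GFP array like Reln. Trp73 (-0.15) did not pass, and Calb2 (0.63) and Cxcr4 (0.45) were positive and did not pass either.

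Immediate early genes, which rise with neuronal activity and with tissue dissociation, averaged 8.02 to 8.08 on the kiTbr2GFP arrays and 8.33, 8.49 and 8.66 on the tgTbr2GFP arrays. Of 24 measured, 2 were higher in tgTbr2GFP and 0 in kiTbr2GFP, 22 differences were negative and the median was -0.42. For 16 all tgTbr2GFP arrays lay above all kiTbr2GFP arrays, beside 9.38% of all genes. Fosb, an AP-1 subunit, was at 8.98, 9.15 and 9.12 against 10.16, 10.17 and 10.60. The groups did not overlap, and the difference of -1.23 ± 0.16 (SE; limma adjusted p = 0.00680) passed in all 6 fits that leave out an array. Zfp36, which destabilizes mRNA, differed by -0.90 ± 0.18 (SE; limma adjusted p = 0.0426), and its call ended without any 1 of the 6 arrays (0.0694 to 0.159). Fos (-0.63), Jun (-0.66), Dusp1 (-0.86) and Egr2 (-0.997) had separate groups and did not pass, while Arc (-0.05) and Egr3 (0.03) overlapped between the lines. Whether these values reflect handling or activity was not tested.

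**Figure D4:**
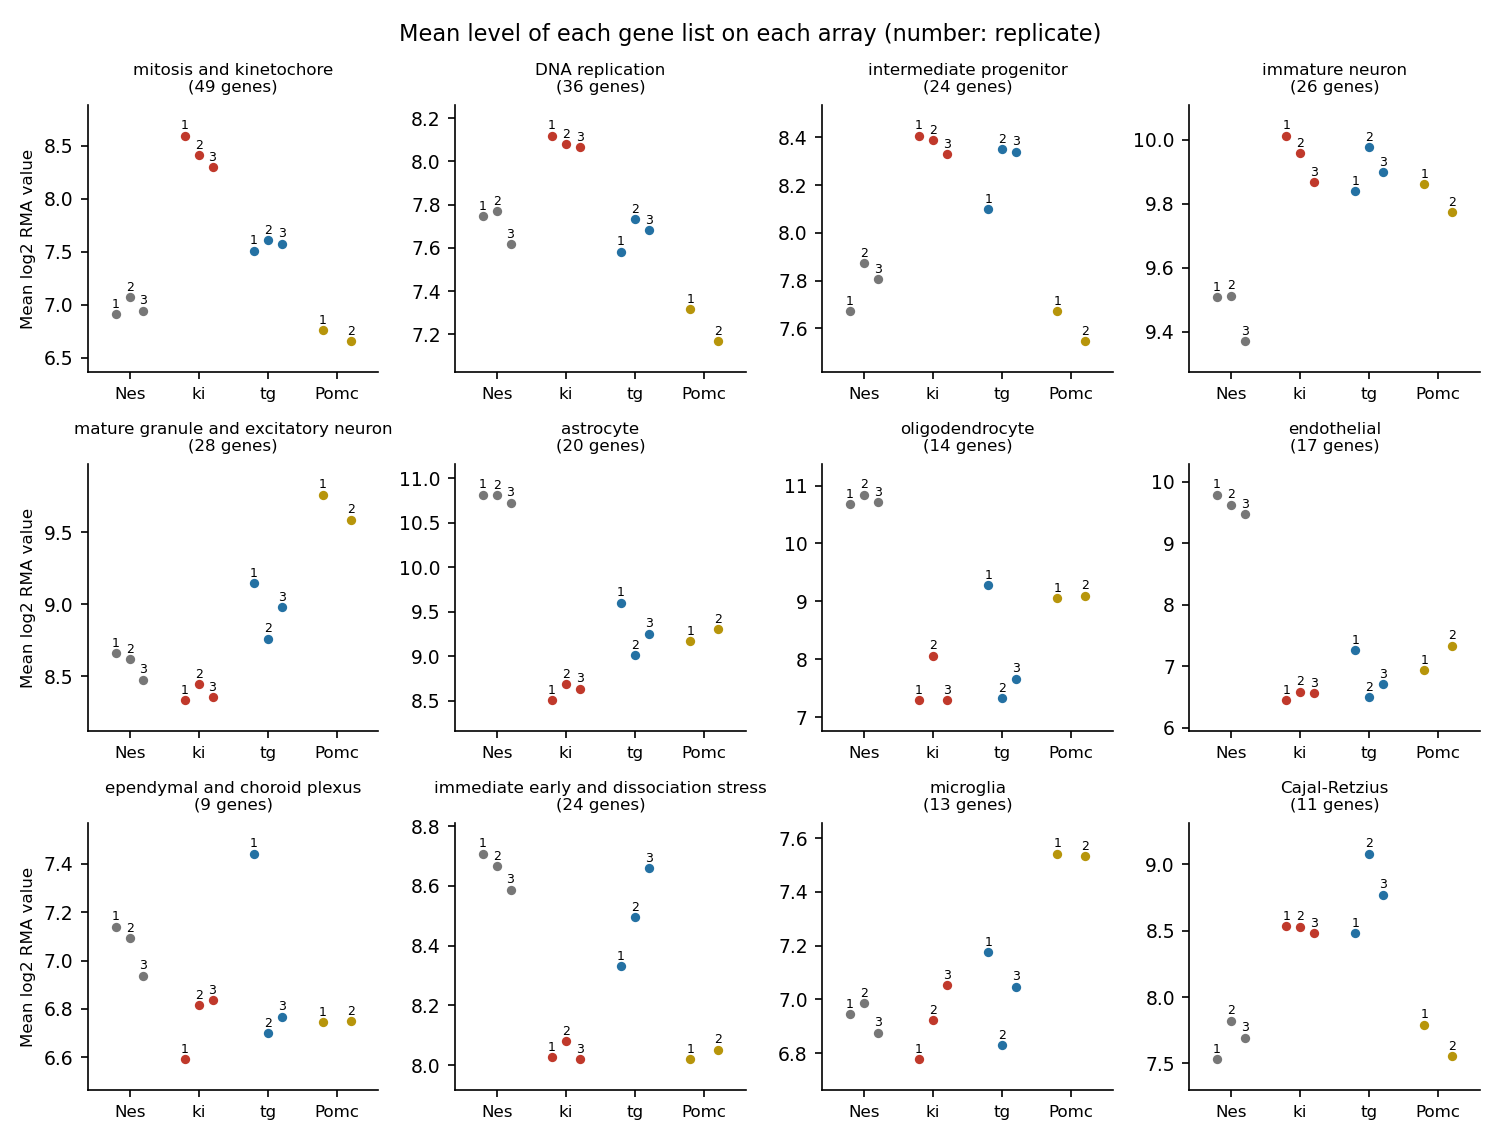
Mean log2 RMA value of 12 gene lists on each of the 11 arrays, with the replicate number above each point. Mitosis genes are highest on the kiTbr2GFP arrays (8.30 to 8.60, against 7.51 to 7.61 for tgTbr2GFP). Among the kiTbr2GFP and tgTbr2GFP arrays, the first tgTbr2GFP array stands apart for oligodendrocyte genes at 9.29. For these genes the NesGFP arrays lie higher, at 10.67 to 10.84, and the PomcGFP arrays slightly lower, at 9.06 and 9.10.

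Of 33 gene lists in all, 19 had no member past the test, among them the Notch pathway (26 genes measured), axon guidance and migration (40), glycolysis (14), the respiratory chain (31), cholesterol and fatty acid synthesis (21), neuronal RNA-binding proteins (26) and the interferon response (12). Their medians ranged from -0.23 for glycolysis to 0.10 for the interferon response. With 1.12% of all genes past the test, lists of these sizes would often hold no such member. Single members passed in the Wnt list, with the ligand Wnt5a at 0.60, and among chromatin regulators, with Hmgb2, an architectural protein abundant in dividing cells, at 0.69. Hmgb2 was at 11.82, 11.64 and 11.66 on the kiTbr2GFP arrays and at 10.88, 11.05 and 11.11 on the tgTbr2GFP arrays, and lost its call without the first kiTbr2GFP array (limma adjusted p = 0.0519). Wnt5a lost it without the first or the third array of either line (0.0553 to 0.0685). Of 215 microRNA and small nucleolar RNA genes 0 passed, and 6 predicted genes and 2 olfactory or vomeronasal receptor genes did.

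Genes outside the lists included the largest differences. Cwc22, a splicing factor whose gene is known to vary in copy number between mouse strains, stood at 11.44, 11.37 and 11.32 on the kiTbr2GFP arrays and at 9.19, 8.71 and 8.69 on the tgTbr2GFP arrays. This wide gap gave 2.51 ± 0.23 (SE; a 5.70-fold higher level in kiTbr2GFP; limma adjusted p = 0.00117). Cwc22 stood at 6.78 to 7.83 on the NesGFP arrays and at 8.23 to 8.57 on the PomcGFP arrays, so the kiTbr2GFP arrays were the ones set apart. The labels give no strain, and a part of strain in this difference was not tested. Of the 8 probe sets named for Cwc22, 7 had identical values and the other differed by 1.48, so near-identical copies of the gene cannot be told apart. Hfm1, a helicase of meiotic crossing over, was at 7.63, 7.90 and 7.05 against 5.57, 5.27 and 5.34, a difference of 2.14 ± 0.20 (SE; limma adjusted p = 0.00117). Its tgTbr2GFP values lay below the 25th percentile of the arrays (6.05 to 6.20), so the size of the difference is imprecise. The same holds for Gzma (1.65), granzyme A of cytotoxic lymphocytes, at 5.11 to 5.36 on the tgTbr2GFP arrays. Aim2, a sensor of cytosolic DNA, differed by 1.97, and its call ended without any kiTbr2GFP array (0.0586 to 0.102). Ska3 (1.52) and Cenpk (1.29), kinetochore genes not on the list, were among the 12 largest named differences; Ska3 failed without the first kiTbr2GFP or the first or the third tgTbr2GFP array (0.0547 to 0.0825), and Cenpk without any array but the second tgTbr2GFP (0.0610 to 0.0849).

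On the other side, Fam183b was at 6.28, 6.65 and 6.61 on the kiTbr2GFP arrays and at 9.31, 9.58 and 8.83 on the tgTbr2GFP arrays. The groups lay far apart, and the difference of -2.73 ± 0.22 (SE; 6.62-fold lower in kiTbr2GFP; limma adjusted p = 0.00056) was the largest of any gene past the test. On the NesGFP and PomcGFP arrays Fam183b stood at 6.11 to 7.27, close to kiTbr2GFP, so the tgTbr2GFP arrays were the ones set apart. Gdpd3, a glycerophosphodiester phosphodiesterase family gene, had the same profile, at 7.21 to 8.29 on the tgTbr2GFP arrays and 5.80 to 6.25 on the other 8. Cdh9, a classical cadherin of specific synapses, was at 5.85, 5.31 and 5.45 against 8.41, 7.35 and 7.63 (-2.25 ± 0.26 SE; limma adjusted p = 0.00553), with 9.49 and 9.51 on the PomcGFP arrays. Its kiTbr2GFP values lay below the arrays' 25th percentile, so the size of this difference is imprecise too. Cnksr2, a synaptic Ras scaffold (-1.63), and Cdh9, Gdpd3 and Fam183b kept their calls in all 6 fits that leave out an array. The 5S ribosomal RNA gene n-R5s136 differed by -2.64 with a wide spread on the tgTbr2GFP arrays (9.24, 10.90 and 10.74), and lost its call without the first or the third kiTbr2GFP or the third tgTbr2GFP array (0.0521 to 0.0552). Mdga2 (-1.74), a regulator of neuroligins, failed without any array but the second kiTbr2GFP (0.0815 to 0.181). Cdr1os (-1.68), annotated antisense to Cdr1, failed without the first or the third kiTbr2GFP or the first tgTbr2GFP array (0.0502 to 0.0570), and whether its probe set also reads Cdr1 was not tested. Plxdc2 (-1.53), a transmembrane protein with a plexin domain, failed without the first or the third kiTbr2GFP or the first or second tgTbr2GFP array (0.0521 to 0.0787).

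Scg2, a granin of secretory granules chosen after its values were seen, is a neuronal gene with tight groups. It was at 6.78, 7.02 and 7.01 on the kiTbr2GFP arrays and at 8.16, 8.32 and 8.15 on the tgTbr2GFP arrays, a difference of -1.28 ± 0.11 (SE; limma adjusted p = 0.000835), and all 6 fits that leave out an array kept the call. Its promoter is shown because it holds a full cyclic AMP response element, TGACGTCA, in capitals, 68 bases before the start (chr1:79440027-79440126, minus strand, GRCm38.p6).
Scg2: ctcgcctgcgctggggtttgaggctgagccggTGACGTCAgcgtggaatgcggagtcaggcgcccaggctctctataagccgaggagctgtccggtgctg
That element was in 3 of 94 promoters of genes higher in tgTbr2GFP (3.19%), in 4 of 60 of genes higher in kiTbr2GFP (6.67%) and in 2.03% of all entries. Among mitosis genes it was in 3 of 24 past the test (12.5%), in 1 of 19 not past it (5.26%) and in 4 of the 43 measured (9.3%).

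The remaining lines give each of these genes a difference between PomcGFP and NesGFP. The NesGFP arrays were also higher in lists of other cells. Their mean was 9.63 against 7.13 on the PomcGFP arrays for endothelial, 9.34 against 7.27 for mural and 10.74 against 9.08 for oligodendrocyte genes. Microglia genes went the other way (6.94 against 7.54). The difference therefore does not separate the step from stem cell to neuron from the content of other cells. PomcGFP against NesGFP shares no array with the comparison of the Tbr2 lines, though both come from the same fit. Of the 113 genes higher in tgTbr2GFP, 37 were higher in PomcGFP than in NesGFP, 41 higher in NesGFP and 35 passed in neither direction. Over all genes the shares were 15.9% higher in PomcGFP and 24% higher in NesGFP. Genes such as Cdh9 (3.00 for PomcGFP minus NesGFP), Gabrb2 (2.96), Ryr2 (2.28) and Gria3 (1.96) were on the PomcGFP side. Slco1c1 (-2.66), Clu (-2.51), S100b (-1.69) and Slc1a3 (-1.67) were on the NesGFP side. Of the 72 genes higher in kiTbr2GFP, 14 were higher in PomcGFP, 25 higher in NesGFP and 33 passed in neither direction. Across all genes the 2 differences correlated at 0.08 and across the 185 at -0.03; genes are not independent, and this is a description. Mki67 was at 6.003 to 6.15 on the NesGFP arrays and 6.83 to 6.90 on the PomcGFP arrays, below all arrays of both Tbr2 lines.

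**Figure D5:**
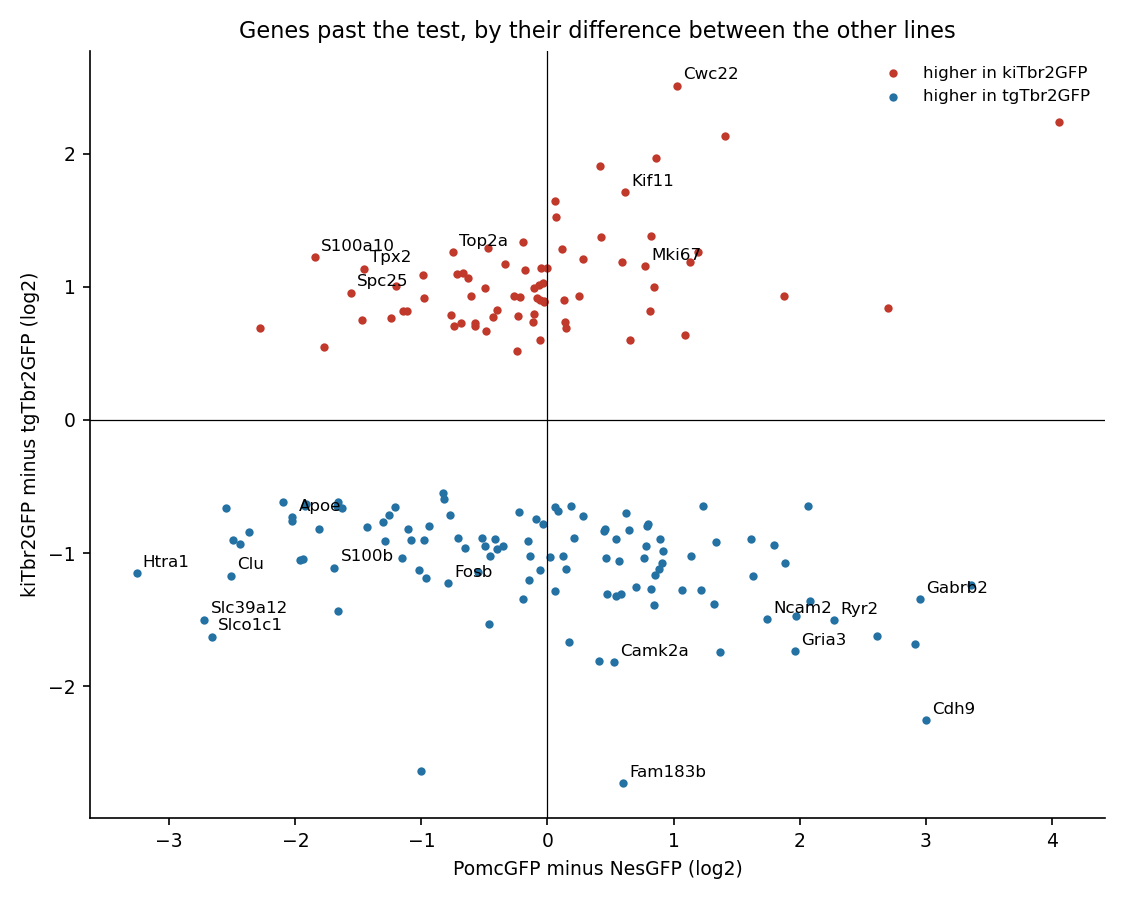
The 185 genes past the test, plotted by PomcGFP minus NesGFP (horizontal, log2) and kiTbr2GFP minus tgTbr2GFP (vertical, log2). Genes higher in tgTbr2GFP (blue) spread to both sides, with Cdh9 at 3.00 and Slco1c1 at -2.66 on the horizontal axis.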

How the data were processed

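RNA of sorted dentate gyrus cells from 4 reporter lines was measured on 11 arrays. The authors' deposited values are log2 RMA values per transcript-cluster probe set, for which the submitters' processing notes name RMA and oligo; versions and genome build are not given in the sources used here. Of 28858 probe sets, 21789 had 1 gene symbol, 1621 several and 5448 none. Probe sets above the array's 25th percentile on at least 2 arrays were kept, 1 per gene by the highest mean, giving 16527 genes. With limma 3.58.1 in R 4.3.3, 1 mean per line was estimated over all arrays (7 residual, 4.22 prior degrees of freedom), with two-sided moderated tests and Benjamini-Hochberg adjustment over all genes. Fits were tested on simulated data: 17.4%, 87.5% and 99.4% of genes with log2 differences of 0.5, 1 and 2 were recovered, with 4.86% false calls. Whether these percentages hold when an array stands apart, as the first tgTbr2GFP array did, was not tested. Members, lists and tests were chosen with earlier results of these data known. Named genes are the 12 largest differences per direction past the test without overlap (predicted and receptor genes apart), a stage panel, up to 3 members per list and direction, sex-linked genes and markers of other cells; further members past or short of the test were named as examples after their values were seen. GFP was not analysed here. Figures used Python 3.11.15 with matplotlib 3.10.9.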

Additional observations from a re-analysis of the deposited data

Results flagged for a closer look

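The report used only probe sets with a single gene symbol. Among 4917 probe sets with several symbols or none that passed the same filter on low values, 11 passed limma's test between the Tbr2 lines, 7 higher in kiTbr2GFP and 4 higher in tgTbr2GFP (0.224%), with differences from -1.74 to 2.61 on the log2 scale. They appear here because they lie outside the genes compared in the report; what they read was not tested.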

How the results depend on the processing

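Array weights raised the count of genes past limma's test from 185 to 1393 (561 higher in kiTbr2GFP, 832 higher in tgTbr2GFP; mitosis members 43, mature neuron members 13), with a weight of 6.31 on the second kiTbr2GFP array. Without the NesGFP arrays the counts were 358, 146 and 212, with 10 mature neuron members. The 6 arrays alone gave 118 genes higher in kiTbr2GFP and 5 astrocyte members, and the Y-linked level as a covariate gave 44 higher in kiTbr2GFP and 8 mature neuron members. Leaving out 1 array gave 68 to 174 genes, 30 to 56 higher in kiTbr2GFP, 28 to 118 higher in tgTbr2GFP, 12 to 21 mitosis members, 2 to 7 mature neuron members and 1 to 9 astrocyte members. The other filters, scalings, probe set rule and variance prior gave 154 to 220 genes. Same-numbered arrays of the lines correlated at 0.12, -0.11 and 0.26 in their deviations, and differently numbered arrays at -0.25 to 0.12. With 3 arrays per line these values cannot tell whether the numbers pair the arrays. In the fit with the replicate block 147 genes passed, with 3 astrocyte members. The cause of these changes was not tested. Signs turned for values that did not pass: with array weights Neurod1 -0.17, Sox2 -0.002, Xist -0.40, Mobp 0.14, Opalin 0.64 and Mag 0.47; with the Y-linked covariate Tbr1 0.051 and Eif2s3y -0.20; and leaving out 1 array gave ranges of -0.0738 to 0.1097 for Neurod1, -0.0163 to 0.0987 for Tubb3, -0.15 to 0.1748 for Sox2, -0.2059 to 0.0276 for Tbr1, -1.0003 to 1.517 for Xist, -1.0626 to 0.50 for Opalin, -0.7857 to 0.31 for Mag and -2.6615 to 0.0135 for Ttr. The array behind the turned sign was the first tgTbr2GFP for Sox2, Xist, Opalin, Mag and Ttr and the first of either line for Neurod1; for Tubb3 it was the third kiTbr2GFP and for Tbr1 the second tgTbr2GFP. Of the 49 named genes past the test, 31 kept the call with the Y-linked covariate and 38 with the block.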

Other observations

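Genes past limma's test that no list covered, 35 higher in kiTbr2GFP and 89 higher in tgTbr2GFP, included the following, chosen as examples after their values were seen. On the kiTbr2GFP side S100a10, the annexin partner p11, stood at 8.17, 8.56 and 8.35 against 7.14, 7.21 and 7.05 on the tgTbr2GFP arrays, without overlap (difference 1.23 ± 0.16 SE; limma adjusted p = 0.0068). The adhesion molecule Chl1 (0.84), the laminin chain Lama2 (0.79) and the nuclear lamin Lmnb1 (0.73) were higher there too. On the tgTbr2GFP side stood the spine scaffold Ppp1r9b (-1.12), the cell adhesion molecule Ncam2 (-1.50), the ephrin receptor Epha6 (-1.36), the endocytic genes Amph (-0.94) and Dnm1 (-0.70), and the metabolic coactivator Ppargc1a (-1.20). The zinc transporter Slc39a12 (-1.50), the serine protease Htra1 (-1.15), the glutathione transferase Gstm1 (-1.05) and the proteoglycan Bcan (-0.66) were also higher in tgTbr2GFP. S100a10, Ppp1r9b and Gstm1 passed in all 6 fits that leave out an array; Dnm1 passed in none of them, and the other 10 in 1 to 4.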
